A study of Mus musculus with 8 samples.

Results

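The genes described here are 33 genes of fatty acid and triglyceride synthesis, chosen by symbol from the 55450 genes of the liver tables. They cover the transcriptional regulators of lipogenesis, the supply of precursor and reducing power, fatty acid synthase and the acetyl-CoA carboxylases, the elongases, the desaturases, the enzymes of triglyceride assembly and one fatty acid receptor. RNA was measured in 8 mouse livers. The 4 KO livers came from Cre+ mice of the Cebpa ΔHep line, a knockout of Cebpa in hepatocytes, and the 4 WT livers from Cre- mice with floxed Cebpa (Cebpa fl/fl). The sources used here do not give the promoter that drives Cre. Every mouse was 10 weeks old at the start and matched for body weight, had 5 days of alcohol-free liquid feed, and was then fed ethanol (5%, vol/vol) in liquid form over 4 weeks. Each difference below is one between genotypes under ethanol, and livers of mice without ethanol were not used here. Livers are called by genotype and the replicate number of their title, KO1 to KO4 and WT1 to WT4.

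Hepatocytes build fatty acids in the cytosol from citrate that leaves the mitochondrion. Acetyl-CoA carboxylase turns acetyl-CoA into malonyl-CoA, fatty acid synthase assembles palmitate from it with NADPH, and elongases and desaturases in the endoplasmic reticulum lengthen and unsaturate the product before it is esterified to glycerol. The transcription factors SREBP-1c, which answers to insulin, and ChREBP, which answers to glucose, drive most of these genes in liver. The product of Cebpa, C/EBP alpha, is a DNA-binding regulator that mature liver and fat cells use, with a known role in hepatic lipid metabolism.

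Cebpa itself, the targeted gene, was at 5.44, 9.26, 7.31 and 6.24 CPM (counts scaled to library size with TMM factors) in KO1 to KO4, against 320, 264, 269 and 320 CPM in WT1 to WT4. The expected counts summed to between 22119605 and 28148744 in the KO livers and between 21048350 and 24119641 in the WT livers. The 10 hepatocyte markers summed to 95057 to 101053 TPM (abundance scaled to gene length) in KO livers and 75144 to 98585 TPM in WT livers, and edgeR called 0 of them (DESeq2: 1 lower). On the CPM scale their median log2 fold change was -0.23 and 8 of the 10 were below 0. At the single-gene level 3 lower and 1 higher had an unadjusted p below 0.05, and 2 were lower in every KO liver than in any WT liver. On the TPM scale the median of all tested genes was 0.12 log2 units higher in KO than in WT livers, so the tests below use CPM and TPM serves to compare levels between genes. In whole liver, fewer cells of a type and less RNA per cell cannot be told apart. Among the WT livers WT2 stood apart over all genes: a chi-square of counts per degree of freedom was 103 to 159 between WT2 and the others, and 28.1 to 52.1 among WT1, WT3 and WT4. In the KO livers this chi-square was 55.3 to 61.9 between KO4 and the others, and 36.1 to 42.4 among KO1, KO2 and KO3. Nothing in the labels ties the 8 livers to litters or days, and p-values weigh the difference between genotypes against the spread between these livers.

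Stearoyl-CoA desaturase 1, the enzyme that makes oleate and palmitoleate and is encoded by Scd1, was the most abundant transcript of the pathway by far. Scd1 averaged 4797 ± 1769 TPM in KO livers and 2656 ± 1811 TPM in WT livers (SD, n = 4 each). It made up 51.2%, 41.9%, 39.9% and 56.9% of the summed TPM of the 33 genes in KO1 to KO4, against 31.2%, 15.0%, 39.9% and 50.2% in WT1 to WT4. The lipogenic nuclear protein gene Thrsp followed, with 1034 ± 623 TPM in KO livers and 747 ± 286 TPM in WT livers (SD, n = 4 each), and the groups overlapped. The polyunsaturate desaturases Fads2 and Fads1 and the last triglyceride enzyme Dgat2 came next, with means over the 8 livers of 632, 339 and 331 TPM. At the low end stood Mogat1, Scd2, G6pdx and Pnpla3, with means of 2.55, 2.54, 1.94 and 0.419 TPM. The 33 genes together summed to 6867 to 13567 TPM in KO livers and 4135 to 9597 TPM in WT livers, so the groups overlapped.

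**Figure D1:**
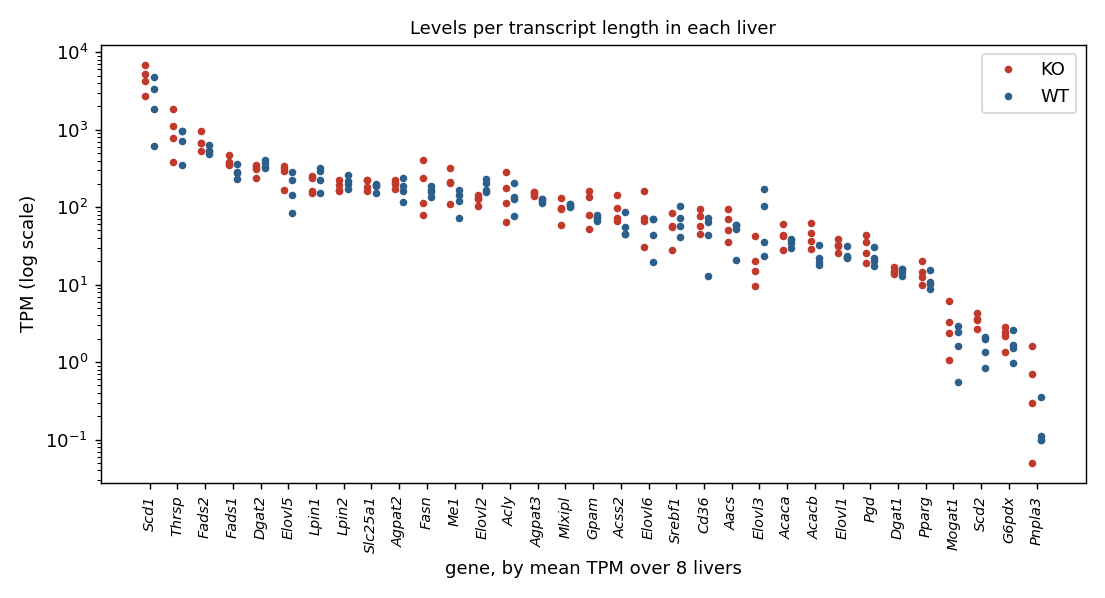
TPM of the 33 genes in each of 4 KO livers (red, left in each pair) and 4 WT livers (blue, right), on a log scale and in order of the mean over the 8 livers. Scd1 is at the top with a mean of 3727 TPM and Pnpla3 at the bottom with 0.419 TPM, and for most genes the points of the groups overlap.

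The test covered 32 of the 33 genes, all but Pnpla3, whose counts were too low. By edgeR's quasi-likelihood test with Benjamini-Hochberg adjustment over all 13303 tested genes, Scd2 rose and Elovl2 fell at an adjusted p below 0.05. These 2 genes are 6.25% of the 32, where 2.06% of all tested genes were called (0.849% higher and 1.21% lower), and 2 genes are too few to set those shares apart. The split of all calls, 113 higher and 161 lower, was 161 and 115 with library size alone, 144 and 84 on log2(TPM + 1), and 137 and 82 on log2(TPM + 0.1). An unadjusted p below 0.05 was found for 5 of the 32, or 15.6%, against 18.5% of all tested genes. KO and WT livers did not overlap in CPM for Scd2 and Elovl2 alone, 2 of the 32, against 11.5% of all tested genes (5.54% with KO livers above and 5.92% with KO livers below). The log2 fold change, KO over WT, was positive for 23 and negative for 9, with a median of 0.24 against 0.00 over all tested genes. That median moved to 0.03 without KO1, 0.12 without WT2 and 0.13 without KO2. It was 0.21 without WT1, 0.29 without KO4, 0.32 without WT3 and 0.33 without KO3. The median without WT4 is not given here, so these values need not span the full range. DESeq2 called 3 of the 32, Scd2 and Elovl2 as before and Acacb higher, where it called 6.05% of all the genes edgeR tested.

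**Figure D2:**
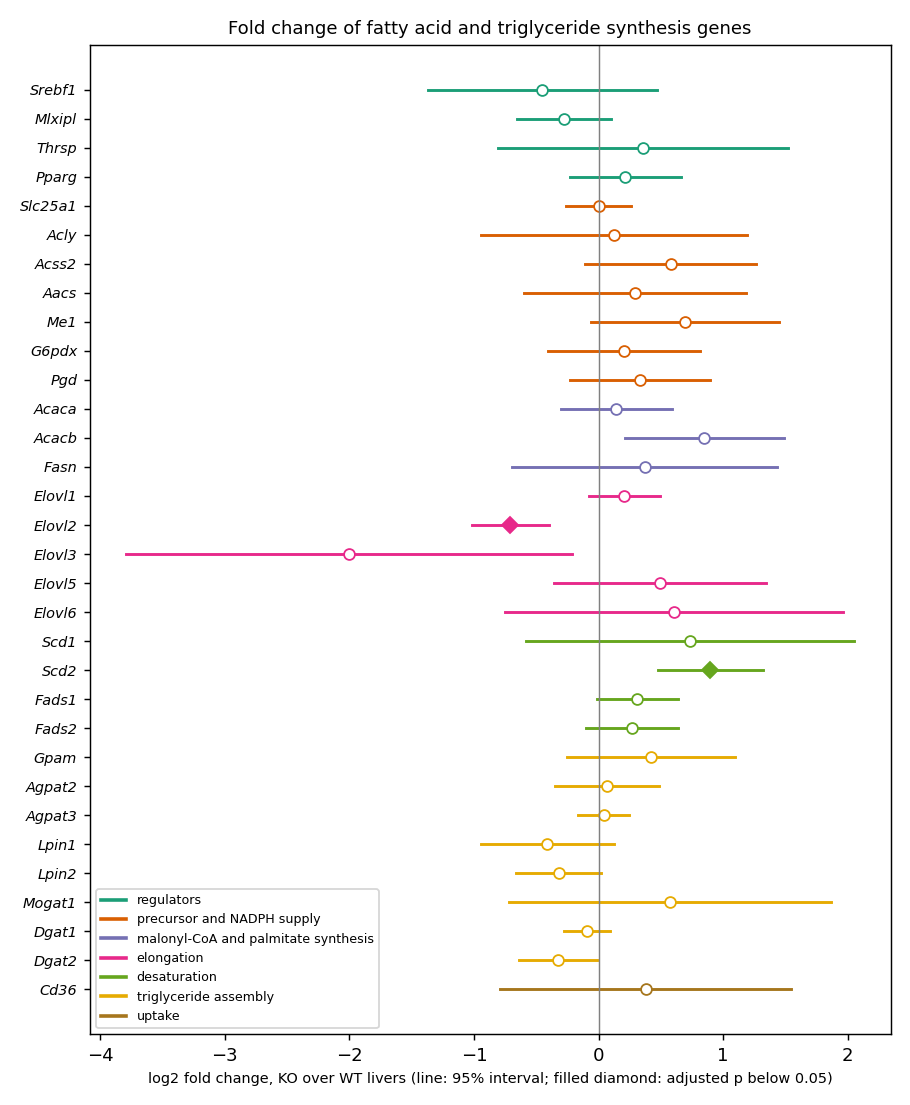
Log2 fold change, KO over WT livers, of the 32 tested genes with its 95% interval, coloured by role. Filled diamonds mark the genes with an edgeR adjusted p below 0.05, Elovl2 at -0.71 and Scd2 at 0.90, and most other intervals include 0.

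Elovl2, which encodes the elongase that lengthens polyunsaturated fatty acids on the way to docosahexaenoic acid, was lower in every KO liver than in any WT liver. Its level was 354, 373, 294 and 352 CPM in KO1 to KO4, against 502, 669, 455 and 619 CPM in WT1 to WT4. The KO livers lay close together, and the highest KO liver, KO2, was below the lowest WT liver, WT3. This was a level 1.63-fold lower in KO livers, a log2 fold change of -0.71 with an SE of 0.14 (adjusted p = 0.0334 by edgeR). With 1 liver left out it ran from -0.80 to -0.62, and the adjusted p stayed below 0.05 in 2 of 8 such fits and reached 0.0847 without KO1. Without WT2 the log2 fold change was -0.62 (edgeR adjusted p = 0.0519). On the TPM scales limma gave an adjusted p of 0.0811 and 0.0792, with pseudocounts of 1 and 0.1. Elovl2 (ENSMUSG00000021364.16) is annotated on the minus strand of chromosome 13 (mm10, 41182381 to 41220405), overlaps no other annotated gene, and shares none of its 50-base stretches with another transcript.

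The promoter of Elovl2 is shown because it is the called gene for which a promoter was at hand, beside that of Fasn, the central gene of the pathway. Both are the 250 bases before the RefSeq start on GRCm38.p6, 5′ to 3′ on the minus strand, Elovl2 at chr13:41220404-41220653 and Fasn at chr11:120824548-120824797. Capitals mark the letters of any motif searched.
Elovl2: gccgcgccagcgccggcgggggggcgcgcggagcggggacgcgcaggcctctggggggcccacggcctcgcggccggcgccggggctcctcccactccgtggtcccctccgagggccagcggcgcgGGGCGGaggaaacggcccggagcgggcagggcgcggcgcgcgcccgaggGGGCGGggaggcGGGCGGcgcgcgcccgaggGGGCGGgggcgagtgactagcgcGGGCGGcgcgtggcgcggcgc
Fasn: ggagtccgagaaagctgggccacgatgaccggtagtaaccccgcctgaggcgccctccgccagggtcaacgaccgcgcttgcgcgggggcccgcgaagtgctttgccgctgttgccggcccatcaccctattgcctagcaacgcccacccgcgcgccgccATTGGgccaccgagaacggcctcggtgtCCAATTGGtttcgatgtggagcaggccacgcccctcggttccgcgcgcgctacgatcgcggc
The motifs searched, on both strands of windows reaching from 250 bases before to 50 bases after the start, were TTNNGNAA for the C/EBP family, CCAAT for NF-Y, GGGCGG for the Sp family, CACGTG for E-box factors and TCACNCCAC for SREBP. Elovl2 held 5 copies of GGGCGG and no other of these motifs in the window shown. Fasn held CCAAT once on the strand shown and, as ATTGG, at 2 places on the other, 1 of them overlapping the first. Promoter windows were matched for 27 of the 33 genes, 39 windows in all, and Dgat1, Dgat2, Elovl3, Fads1, Scd1 and Scd2 were not matched. TTNNGNAA was found in 13 of the 39 windows, and in 40.7% of all 32851 promoter windows of the mouse table. CCAAT was found in 20 and GGGCGG in 21 of the 39, against 37.4% and 35.7% of all windows. CACGTG was found in 4 and TCACNCCAC in 1, that of Mlxipl, against 7.15% and 1.24%. These are matches of letters and show no binding.

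Scd2, the desaturase paralog of brain and fetal tissues, was higher in every KO liver than in any WT liver, at a low level. It was at 8.76, 10.7, 7.40 and 9.14 CPM in KO1 to KO4, against 3.29, 4.80, 6.15 and 5.07 CPM in WT1 to WT4. The gap between the groups was narrow, with 7.40 CPM in KO3 against 6.15 CPM in WT3. The level was 1.86-fold higher in KO livers, a log2 fold change of 0.90 with an SE of 0.19 (adjusted p = 0.0451 by edgeR). It ran from 0.75 to 1.03 with 1 liver left out, and the adjusted p was below 0.05 in 1 of 8 such fits and reached 0.127 without KO2. Without WT2 the log2 fold change was 0.89 (edgeR adjusted p = 0.0827). With the replicate number as a block the adjusted p was 0.0875, and on the TPM scales limma gave 0.0566 and 0.0702.

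Scd2 (ENSMUSG00000025203.6, chromosome 19 of mm10, 44293674 to 44306864, plus strand) is annotated near Scd1 (44394455 to 44407879, minus strand). Of the 50-base stretches of Scd2, 3.97% also occur in transcripts of other genes, mainly Scd1, Scd3 and Scd4, and 145 of them occur in Scd1. The expected count in KO1 was 542394 for Scd1 and 195 for Scd2, and the Scd2 counts were fractional in all 8 livers. A small share of Scd1 reads counted as Scd2 would therefore weigh on the level of Scd2. How the shared reads were divided was not tested. There were 0.523, 1.02, 0.977 and 0.655 TPM of Scd2 per 1000 TPM of Scd1 in KO1 to KO4, against 0.448, 2.17, 0.629 and 0.409 in WT1 to WT4. KO1 had the highest Scd1 of its group and KO2 the highest Scd2, while KO3 was lowest in both, and WT4 had the highest Scd1 of its group and WT3 the highest Scd2. Markers of bile duct cells moved with genotype as well. Of 8 such markers, 7 were tested and 5 rose (Krt19, Epcam, Spp1, Pkhd1 and Bicc1), and the list summed to 121 to 418 TPM in KO livers against 25.9 to 65.7 TPM in WT livers, mostly Spp1, with Cftr at 0 in WT3 and WT4. Macrophage markers summed to 239 to 418 TPM in KO livers and 139 to 295 TPM in WT livers. Of these 10, edgeR called 0 (4 at an unadjusted p below 0.05) and DESeq2 called 1. All 10 leaned toward KO livers, the median log2 fold change being 0.55. So did all 6 endothelial and all 6 stellate cell markers, where the medians were 0.32 and 0.33. In either list edgeR called 0, and 2 had an unadjusted p below 0.05. In CPM 1 stellate marker was higher in every KO liver than in any WT liver. The part of any of these cell types in the Scd2 result was not tested.

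**Figure D3:**
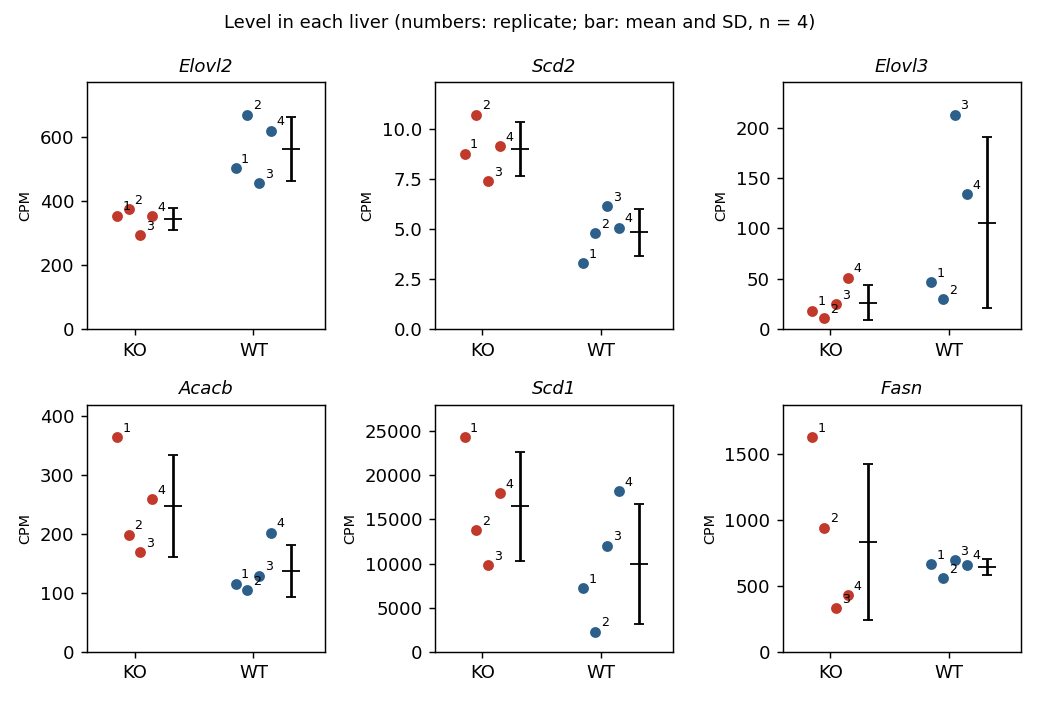
CPM in each liver of Elovl2, Scd2, Elovl3, Acacb, Scd1 and Fasn, with the replicate number at each point and the mean and SD of 4 livers beside it (KO left, WT right; each axis starts at 0). Elovl2 and Scd2 show no overlap between the groups, and Fasn spreads from 330.3 to 1630 CPM in KO livers and from 556 to 696 CPM in WT livers.

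Scd1 itself was at 24364, 13760.2, 9836 and 17951 CPM in KO1 to KO4, against 7211, 2244, 12004 and 18177 CPM in WT1 to WT4. The groups overlapped widely, since WT4 exceeded 3 of the KO livers, and WT2 lay 8.10-fold under WT4. The log2 fold change was 0.73 with a 95% interval of -0.58 to 2.05 (edgeR adjusted p = 0.532), and it was 0.40 without WT2. Fads1 and Fads2, the delta-5 and delta-6 desaturases of polyunsaturated fatty acids, lie close to each other on chromosome 19. Their log2 fold changes were 0.31 (interval -0.01 to 0.63) and 0.26 (-0.10 to 0.63), and neither passed the test (edgeR adjusted p = 0.286 and 0.425).

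Among the other elongases, Elovl3 had the largest difference of the 32 genes in absolute log2 terms, and it did not pass the test. Elovl3, whose product makes saturated and monounsaturated very long chains and which is known as a male-biased, circadian gene of mouse liver, was at 18.4, 11.0, 24.9 and 51.1 CPM in KO1 to KO4, against 46.6, 29.6, 213 and 134 CPM in WT1 to WT4. WT3 and WT4 were high, and KO4 was above WT1 and WT2. The mean level was 4.01-fold lower in KO livers by the fit, with an SE of 0.76 and a wide interval of -3.79 to -0.22 on the log2 scale (edgeR adjusted p = 0.224). The log2 fold change was -1.41 without WT3 and -2.56 without KO4. It was the 1 gene of the 32 with an absolute log2 fold change of at least 1, as had 3.91% of all tested genes. Elovl6, which lengthens palmitate to stearate, and Elovl5, which lengthens polyunsaturated chains a step before Elovl2, had positive values that did not pass the test. Elovl6 was at 697, 286, 133 and 273 CPM in KO1 to KO4 and at 202, 85.4, 302 and 324 CPM in WT1 to WT4 (log2 fold change 0.60, interval -0.75 to 1.96, edgeR adjusted p = 0.617). Without KO1 that log2 fold change was 0.01. Elovl5 averaged 537 ± 148 CPM in KO livers and 383 ± 181 CPM in WT livers (SD, n = 4 each, edgeR adjusted p = 0.519). Elovl1, the elongase of saturated very long chains, ran from 23.8 to 33.3 CPM in KO livers and from 22.6 to 30.7 CPM in WT livers (log2 fold change 0.21, edgeR adjusted p = 0.423).

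The estimated log2 fold change was larger for 1 acetyl-CoA carboxylase, Acacb, than for the other, Acaca. Their intervals overlapped, and the contrast between them was not tested. Acacb, whose product sits at the mitochondrion and makes the malonyl-CoA that restrains fatty acid oxidation, was at 364, 198, 168 and 259 CPM in KO1 to KO4, against 115, 104, 129 and 202 CPM in WT1 to WT4. Only WT4 reached into the range of the KO livers, above KO2 and KO3. The log2 fold change was 0.85 (interval 0.21 to 1.49), which did not pass edgeR's test (adjusted p = 0.160) and passed that of DESeq2 (adjusted p = 0.0297). Without KO1 it was 0.59 and without WT4 1.09. Acaca, the cytosolic carboxylase that feeds fatty acid synthase, was at 296, 208, 144 and 182 CPM in KO1 to KO4 and at 191, 156, 196 and 208 CPM in WT1 to WT4 (log2 fold change 0.14, interval -0.30 to 0.59, edgeR adjusted p = 0.735). A processed copy, Gm5182, holds most of the 30.4% of Acaca's 50-base stretches that occur in other transcripts, so the level of Acaca is uncertain to that extent.

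Fasn, fatty acid synthase, was at 1630, 940.0, 330.3 and 428 CPM in KO1 to KO4, against 666, 556, 696 and 659 CPM in WT1 to WT4. KO1 and KO2 were above every WT liver, and KO3 and KO4 were below every WT liver. The KO livers differed 4.93-fold at most and the WT livers 1.25-fold. The log2 fold change was 0.37 (interval -0.70 to 1.43, edgeR adjusted p = 0.707) and -0.19 without KO1.

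The genes that supply precursor and NADPH gave 0 calls in 7 by edgeR and by DESeq2, with no unadjusted p below 0.05. Acly, ATP citrate lyase, was at 872, 505, 202 and 340.5 CPM in KO1 to KO4, against 452, 241, 654 and 418 CPM in WT1 to WT4 (log2 fold change 0.12, interval -0.95 to 1.19), and its log2 fold change was -0.35 without KO1. Me1, the malic enzyme that yields cytosolic NADPH, was at 707, 429, 246 and 429 CPM in KO1 to KO4, against 170.0, 271, 308 and 370.5 CPM in WT1 to WT4 (log2 fold change 0.69, interval -0.06 to 1.45, edgeR adjusted p = 0.308). Of its 50-base stretches 22.9% occur in other transcripts, mainly Gm7049. Acss2, which makes acetyl-CoA from acetate, the end product of ethanol oxidation, averaged 186 ± 70.8 CPM in KO livers and 125 ± 42.6 CPM in WT livers (SD, n = 4 each; log2 fold change 0.58, interval -0.11 to 1.26, edgeR adjusted p = 0.347). The citrate carrier Slc25a1 was at 200.3 ± 27.6 CPM in KO livers and 200.3 ± 20.6 CPM in WT livers (SD, n = 4 each), and the interval of its log2 fold change, -0.26 to 0.26, was among the narrower ones. The pentose phosphate dehydrogenases Pgd and G6pdx and the acetoacetyl-CoA synthetase Aacs had log2 fold changes of 0.33, 0.21 and 0.29, with edgeR adjusted p of 0.513, 0.719 and 0.721. G6pdx shares 13.6% of its exonic bases with Ikbkg on the opposite strand, and the strand setting of the counting is not given in the sources used here. Of the 50-base stretches of G6pdx, 6.46% also occur in transcripts of G6pd2.

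None of the 4 regulators passed the test by edgeR or DESeq2, and none had an unadjusted p below 0.05. Srebf1, the gene of SREBP-1c, was at 138, 196, 129 and 59.3 CPM in KO1 to KO4, against 198, 271, 142 and 105 CPM in WT1 to WT4 (log2 fold change -0.45, interval -1.37 to 0.47, edgeR adjusted p = 0.582). Mlxipl, the gene of ChREBP, was at 170.1, 110.0, 179 and 216 CPM in KO1 to KO4, against 211, 202, 202 and 203 CPM in WT1 to WT4, so that 3 of the 4 KO livers were under every WT liver (log2 fold change -0.28, interval -0.66 to 0.10, edgeR adjusted p = 0.410). Thrsp, a target of both factors in rodent liver, ran from 302 to 1531 CPM in KO livers and from 301 to 870.1 CPM in WT livers. Pparg, the fat cell regulator that is known to rise in steatotic mouse liver, averaged 18.2 ± 4.73 CPM in KO livers and 15.7 ± 3.12 CPM in WT livers (SD, n = 4 each; interval of the log2 fold change -0.23 to 0.66, edgeR adjusted p = 0.601). Of the 6 fat cell markers, Adipoq, Plin1, Lep and Retn were listed at 0 in all 8 livers. The list summed to 15.6 to 46.8 TPM in KO livers and 0 to 9.00 TPM in WT livers, from Cfd and Cidea, which edgeR did not call (1 had an unadjusted p below 0.05).

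Triglyceride assembly had 0 calls in 8 tested genes by edgeR and by DESeq2, and 1 gene, Dgat2, with an unadjusted p below 0.05. Dgat2, the acyltransferase that esterifies newly made fatty acids in liver, was at 477, 507, 525 and 355 CPM in KO1 to KO4, against 554, 508, 655 and 618 CPM in WT1 to WT4 (log2 fold change -0.33, interval -0.64 to -0.01, edgeR adjusted p = 0.251). KO3 alone exceeded a WT liver, WT2. Dgat1, the other diacylglycerol acyltransferase, had the narrowest interval, from -0.27 to 0.10 around -0.09, with 16.5 ± 1.26 CPM in KO livers and 17.5 ± 0.386 CPM in WT livers (SD, n = 4 each). The phosphatidate phosphatases Lpin1 and Lpin2, which make the diacylglycerol, had log2 fold changes of -0.41 (interval -0.94 to 0.12) and -0.32 (interval -0.66 to 0.02). Gpam, the mitochondrial glycerol-phosphate acyltransferase at the entry of the pathway, was at 541, 426, 281 and 176 CPM in KO1 to KO4 and between 249.6 and 293 CPM in WT livers (log2 fold change 0.42, interval -0.25 to 1.09). Agpat2 and Agpat3, which add the next acyl chain, had log2 fold changes of 0.07 and 0.04. Agpat3 did not overlap between the groups in TPM (149.8 ± 8.54 TPM in KO and 122 ± 6.41 TPM in WT livers, SD, n = 4 each) while it did in CPM (255 ± 13.7 and 248 ± 23.3 CPM in KO and WT livers). The log2 ratio of its mean TPM was 0.29, larger than the 0.12 of the median gene on the TPM scale, given above. The cause of this difference between the scales was not tested. Mogat1, a monoacylglycerol acyltransferase of fatty liver in mice, ran from 0.580 to 3.59 CPM in KO livers and from 0.340 to 1.86 CPM in WT livers (edgeR adjusted p = 0.630), and shares 12.8% of its exonic bases with BC035947 on the opposite strand.

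Pnpla3, a triglyceride lipase and transacylase of the lipid droplet, was close to the limit of detection. It had 31, 6, 1 and 9 counts in KO1 to KO4, against 2, 2, 2 and 7 counts in WT1 to WT4 (WT4 rounded from 7.35). The sums of 47 counts in KO livers and 13 in WT livers gave a ratio of 3.28 with an exact binomial 95% interval of 1.75 to 6.61, which covers counting error only, and KO1 alone held most of the KO sum. Cd36, the fatty acid receptor that lets hepatocytes take up fatty acids from plasma, was at 151, 172, 113 and 84.8 CPM in KO1 to KO4, against 95.3, 25.9, 144 and 135 CPM in WT1 to WT4. WT2 was far under the other livers, and the log2 fold change was 0.38 (interval -0.79 to 1.55, edgeR adjusted p = 0.722).

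Many of these genes varied widely among livers of 1 genotype. Among the 29 with a mean of at least 10 CPM, the highest liver of a group exceeded the lowest by a median of 2.06-fold in KO livers and 1.72-fold in WT livers, against 1.24-fold in each group over the 7294 tested genes at that level. A ratio of at least 2 was found for 16 of the 29 in KO livers and 12 in WT livers, against 5.33% and 5.70% of those 7294 genes. The biological coefficient of variation, edgeR's estimate of the spread between livers relative to the mean without counting noise, had a median of 0.254 over the 29 and 0.129 over the 7294. The liver at the extreme of its group was counted for each gene, with no test. Of the 32 tested genes, 15 were highest in KO1 among the KO livers, including Acly, Me1, Acaca, Acacb, Fasn, Elovl5, Elovl6, Scd1 and Gpam, and KO1 was highest for 24.4% of all tested genes. KO3 was lowest for 17 of the 32, and for 21.3% of all tested genes. Among the WT livers 20 were lowest in WT2, including Acly, Fasn, Elovl5, Elovl6, Scd1, Thrsp, Mogat1 and Cd36, and 15 were highest in WT4. Over all tested genes WT2 was lowest for 31.8% and highest for 31.9%, and WT4 highest for 22.4%. Srebf1, Elovl1, Elovl2 and Lpin2 did not share this order, being highest in WT2 among the WT livers, and Srebf1 was lowest in WT4. KO4 was the deepest library, KO1 and KO3 were similar in depth, and WT2 was the shallowest of the WT libraries. The part of depth in this order was not tested.

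**Figure D4:**
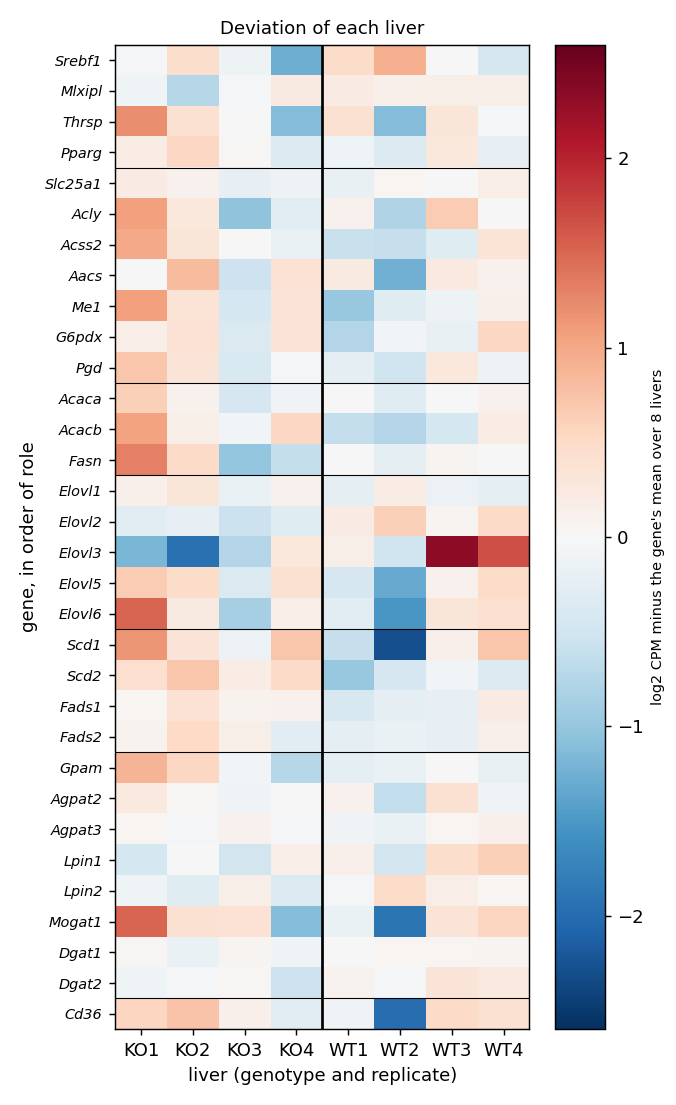
Log2 CPM of the 32 tested genes minus the mean of the gene over the 8 livers, with KO livers left of the vertical line, WT livers right of it, and horizontal lines between roles. Red is higher and blue lower, and the scale runs from -2.6 to 2.6. Columns KO1 (mostly red) and WT2 (mostly blue) stand out across the synthesis genes, while the row of Elovl2 is blue in all KO livers and red in all WT livers.

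Ratios between paralogs or partner genes, not always of the same step, do not depend on library scaling. Of 8 such TPM ratios, chosen after the values of the genes were seen and given with no test, 1 did not overlap between the groups. Elovl5 over Elovl2 was 2.69, 2.24, 1.58 and 2.23 in KO1 to KO4, against 0.879, 0.363, 1.41 and 1.35 in WT1 to WT4. Elovl2, the denominator, did not overlap by itself in TPM either. The values of Acacb over Acaca were 1.04, 0.832, 1.03 and 1.11 in KO1 to KO4, against 0.573, 0.599, 0.576 and 0.839 in WT1 to WT4, so that only KO2 and WT4 crossed, by a small margin. The ratios of Fads1 to Fads2, Lpin1 to Lpin2, Agpat2 to Agpat3, Dgat1 to Dgat2, Elovl6 to Elovl5 and Scd2 to Scd1 overlapped.

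Around these 33 genes, 75 further genes of the pathway were followed, of which 69 were tested. Of these 1 rose and 0 fell by edgeR's test, which called 2.06% of all tested genes. An unadjusted p below 0.05 was found for 21 of the 69, against 18.5% of all tested genes. DESeq2 called 3 higher and 4 lower, where it called 6.05% of all the genes edgeR tested. KO and WT livers did not overlap in CPM for 11 of the 69 (4 with KO livers above and 7 below), against 11.5% of all tested genes. The median log2 fold change of the 69 was -0.01. The gene that rose was Lpl, lipoprotein lipase, which frees fatty acids from plasma triglycerides and is scarce in adult hepatocytes. It was the edgeR call among 14 tested genes of uptake and activation, where DESeq2 called 2. Lpl was at 70.4, 113, 133 and 153 CPM in KO1 to KO4, against 18.1, 20.3, 13.6 and 24.0 CPM in WT1 to WT4 (log2 fold change 2.63, SE 0.26, edgeR adjusted p = 0.00262). Macrophages and fat cells express Lpl too, their markers are given above, and their part in the rise of Lpl was not tested. Of the 18 other regulators of lipogenesis, 12 had a negative value and 7 an unadjusted p below 0.05, all lower, where 8.9% of all tested genes were lower at that p, with 0 called by edgeR and 1 lower by DESeq2. Prkag1, a regulatory subunit of the AMP-activated kinase, had the smallest p of these, with 22.4 ± 0.985 CPM in KO livers and 26.8 ± 0.612 CPM in WT livers (SD, n = 4 each, edgeR adjusted p = 0.0944). Of 10 tested elongation and desaturation partners, Cyb5r3, the reductase that passes electrons to cytochrome b5, averaged 602 ± 82.5 CPM in KO livers and 433 ± 50.8 CPM in WT livers (SD, n = 4 each, edgeR adjusted p = 0.0921). Of 10 further triglyceride enzymes, Gpat3, a glycerol-phosphate acyltransferase, averaged 4.90 ± 1.37 CPM in KO livers and 9.47 ± 3.65 CPM in WT livers (SD, n = 4 each, edgeR adjusted p = 0.130). Neither list had an edgeR call, with 5 and 2 genes at an unadjusted p below 0.05 and 2 DESeq2 calls each. Among 8 NADPH genes and 9 genes of sugar entry and glycolysis both tools called 0, with 2 and 1 at an unadjusted p below 0.05. In the NADPH list the smallest p belonged to Idh1, cytosolic isocitrate dehydrogenase, with 385 ± 43.1 CPM in KO livers and 461 ± 26.1 CPM in WT livers (SD, n = 4 each, edgeR adjusted p = 0.221).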

How the data were processed

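Polyadenylated RNA of 8 livers was made into stranded TruSeq libraries, per the labels' protocols. Tools listed, per the submitters' processing notes, are RSEM 1.2.22, STAR 2.5.1, Trimmomatic 0.36, Picard 1.84 and DESeq2, with build mm10. The deposited tables hold 1 row per gene with RSEM expected counts (estimates, so fractions occur). TPM, scaled to gene length and a common total, is the authors' own column of those tables. The deposited table of all livers was not used. Identifiers were placed with GENCODE M21.

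The main test used edgeR 4.0.16 (R 4.3.3) on rounded expected counts: filterByExpr by genotype (minimum count 10, total 15), TMM factors, robust quasi-likelihood test of KO against WT, two-sided, Benjamini-Hochberg adjustment over the 13303 genes kept of 23236 with any count, threshold 0.05. SEs came from the fold change and F statistic, and intervals are 95% and unadjusted. A count of 1 was worth 0.0341 to 0.0485 CPM. No pair of livers agreed within sampling noise. Alternatives used DESeq2 1.42.0 and limma 3.58.1, other scalings and filters, a replicate block, and livers left out. All 33 genes are accounted for. Those called, without overlap or with an absolute log2 fold change of at least 1 were to be given in full, values per liver of further genes were added after they were seen, and each other list gives its called gene or that with the smallest p, except 1 gene that is not reported here. Genes and lists were chosen with earlier results of these data known. Only the edgeR fit was run on simulated counts, which had the same dispersion for every gene, and the outcome is not given here. Promoters are from RefSeq (GRCm38.p6), and figures used matplotlib 3.10.9.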

Additional observations from a re-analysis of the deposited data

Results flagged for a closer look

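In 64 groups of 4 livers (32 genes, 2 genotypes), 3 had a liver far from the other 3. Chance gives about 1 in 20 such groups, and 3 of 64 is near that rate. Aacs was at 47.6 CPM in WT2, under 122 CPM in the nearest WT liver. Elovl1 was at 30.7 CPM in WT2, above 24.0 CPM in the nearest. Fads2 was at 1542 CPM in WT4, above 1245 CPM in the nearest. Their cause was not tested.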

How the results depend on the processing

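Fits with RLE factors, library size alone, no robust estimation, limma-voom, no filter or a filter of 1 CPM in 4 livers kept 1 gene of the 33 higher and 1 lower. DESeq2 gave 384 higher and 453 lower genes in all, 2 higher among the 33, and 3 higher and 4 lower among the other pathway genes. On log2(TPM + 1) and log2(TPM + 0.1), limma gave 84 and 82 lower genes, 0 of the 33 in either direction and 2 other pathway genes higher. There the adjusted p was 0.0811 and 0.0792 for Elovl2 and 0.0566 and 0.0702 for Scd2. Library size alone gave 2 other pathway genes higher. Same-numbered livers deviated with correlations of 0.21, 0.01, -0.02 and -0.07, so the numbers were not taken as pairs, and a replicate block gave 98 lower genes in all (78 higher) and 0 of the 33 higher. Leaving out 1 liver gave 46 to 167 genes higher and 61 to 205 lower, 0 to 1 of the 33 in each direction, and 1 to 2 and 0 to 1 other pathway genes higher and lower. Without WT2 and KO4, chosen after seeing the data, 185 genes were higher and 246 lower, 0 of the 33 in either direction, and 1 other pathway gene was lower. Signs turned for genes far from the threshold. Slc25a1 was at 0.071 with library size alone, 0.0076 with the filter of 1 CPM, and 0.0918 and 0.0922 on the TPM scales, where Dgat1 was at 0.0186 and 0.0197. Without WT2 and KO4, Srebf1 was at 0.057, Slc25a1 at 0.052, Aacs at -0.0018 and Agpat2 at -0.084. With 1 liver left out, Slc25a1 ran from -0.084 to 0.058, Thrsp from -0.11 to 0.63, Acly from -0.35 to 0.37, Acaca from -0.088 to 0.28, Fasn from -0.19 to 0.63, Agpat2 from -0.10 to 0.22 and Agpat3 from -0.0084 to 0.086. The cause was not tested. Depth limits Pnpla3 and, less, Mogat1, G6pdx and Scd2.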
